A study of Mus musculus with 6 samples.

Results

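Transcripts of 8 genes of transforming growth factor beta (TGF-beta) signalling and of retinoate synthesis were followed in mouse dendritic cells exposed to calcium hydroxide nanoparticles. The genes were chosen by name from the 23398 genes of the deposited expression table: the ligand Tgfb1, the integrin subunit Itgb8, the receptors Tgfbr1 and Tgfbr2, the signal transducers Smad3 and Smad7, the secreted target Tgfbi and the retinal dehydrogenase Aldh1a2. The dendritic cells had been grown from mouse bone marrow in DMEM with fetal bovine serum and antibiotics, and were exposed for 12 hours either to Ca(OH)2 nanoparticles (3 libraries) or to vehicle (3 libraries). RNA sequencing libraries were made from 1 µg of total RNA. Mouse strain, sex and age, the growth factors of the culture, the particle dose and the make-up of the vehicle are not given in the sources used here. The labels do not say whether replicates came from separate cultures or animals, so the p-values measure only the spread between these libraries, which may be technical.

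TGF-beta1 is secreted in a latent complex, and integrins that contain the alpha-v subunit, such as the pair with the beta-8 subunit encoded by Itgb8, can release it. The active ligand binds TGFBR2, which then engages and phosphorylates TGFBR1, and TGFBR1 phosphorylates Smad2 and Smad3. Smad7 is induced by the pathway and inhibits it at the receptor. Aldh1a2 oxidises retinal to retinoic acid. Dendritic cells of the gut are known for using both active TGF-beta and retinoic acid to steer T cells towards a regulatory and gut-homing state.

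Expression is given in FPKM, the number of fragments from a gene after division by its length and by a scale for its library. Recovered read totals were 17282809 to 21977493 per library. Nanoparticle library 1 stood apart: the correlation of log2(FPKM + 1) across 10682 genes, which are not independent replicates, was 0.942 and 0.928 with nanoparticle libraries 2 and 3, against 0.990 between those and 0.993 to 0.994 between vehicle libraries. In 19.8% of the tested genes its level was over 2-fold away from the average of nanoparticle libraries 2 and 3. Of the dendritic cell markers, Itgax was at 442 to 456 FPKM in vehicle and 248 to 398 FPKM in nanoparticle libraries, H2-Ab1 was at 494 FPKM or more in all libraries, and Flt3 was at most 0.0793 FPKM. Of 8 such markers 7 were tested and 3 called (42.9%, against 33.2% of all tested genes), all lower. They were Cd209a (5.69 to 0.0254 FPKM in the mean), Clec10a (6.92 to 0.786 FPKM) and Zbtb46 (3.97 to 2.30 FPKM). Cd209a and Clec10a passed the filter of 1 FPKM in 3 libraries through vehicle, so their calls support little. Batf3 (8.90 to 12.0 FPKM) and Dcstamp (161 to 169 FPKM), not called, had higher means with nanoparticles. Without nanoparticle library 1, the calls were 2 higher and 4 lower, where 64.8% of all tested genes were called. The part of these marker differences in the results for the 8 genes was not tested. The macrophage genes C1qb (256 to 325 FPKM in vehicle, 64.8 to 124 FPKM with nanoparticles) and Adgre1 (62.9 to 68.3 and 132 to 276 FPKM) were expressed too. In such bulk samples, fewer cells of a type and less RNA per cell cannot be told apart.

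Of the 8 genes, 4 changed at a Benjamini-Hochberg adjusted p under 0.05 in limma's moderated test on log2(FPKM + 1). Aldh1a2 and Tgfb1 were higher with nanoparticles, and Tgfbr2 and Tgfbr1 were lower. Smad7 and Tgfbi did not pass, and Smad3 and Itgb8 fell below the filter of 1 FPKM in at least 3 libraries and were not tested in this fit. Thus 4 of 6 tested members were called, where 33.2% of all tested genes were called (17.0% higher and 16.2% lower). The groups did not overlap in 4 of the 6 tested members, against 52.1% of all tested genes. The 8 genes were chosen by name and with earlier results of these data known, so their share is a description.

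**Figure D1:**
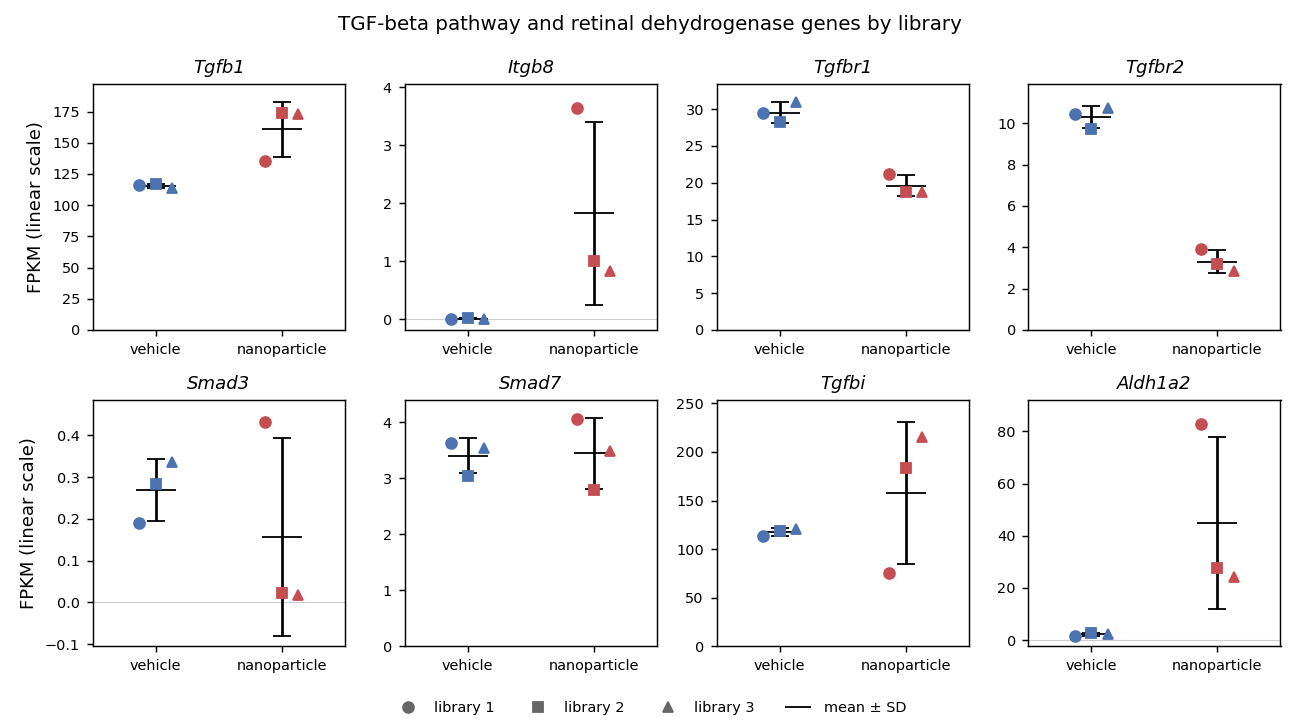
FPKM (linear scale, 1 panel per gene) of the 8 genes in the 3 vehicle and 3 nanoparticle libraries, with symbols for library numbers and bars for mean ± SD. Tgfbr1 and Tgfbr2 are lower in all nanoparticle libraries, Aldh1a2 and Itgb8 are higher, and nanoparticle library 1 (circle) is far from the other nanoparticle libraries for Itgb8, Smad3, Tgfbi and Aldh1a2.

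Levels in FPKM, which are per length and can be set side by side, spanned a wide range. In vehicle cells Tgfbi (113 to 121 FPKM) and Tgfb1 (114 to 117 FPKM) were the most abundant of the 8 and overlapped each other. Tgfbr1 followed at 28.2 to 30.9 FPKM, Tgfbr2 at 9.72 to 10.7 FPKM, Smad7 at 3.05 to 3.62 FPKM and Aldh1a2 at 1.62 to 2.56 FPKM, with no overlap between neighbours in this order. Smad3 (0.190 to 0.337 FPKM) and Itgb8 (0.00433 to 0.0228 FPKM) were the least abundant. With nanoparticles, Aldh1a2 (24.4 to 82.7 FPKM) lay above Tgfbr1 (18.7 to 21.3 FPKM), and Tgfbr2 (2.84 to 3.91 FPKM) overlapped Smad7 (2.78 to 4.05 FPKM).

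The sequences upstream of the genes that changed are shown because they let a reader compare the members that rose with those that fell. RefSeq promoter entries on build GRCm38.p6 were found for 7 of the 8 genes, and the 250 bases before the annotated start are printed for the 4 that passed the test, 5′ to 3′ on the strand of the gene. Capitals mark matches, on either strand, to the CCAAT box (CCAAT), the GC box (GGGCGG), the TATA box (TATAAA), the Smad box (CAGAC), the AP-1 site (TGANTCA) and the kappaB consensus. The 2 genes that were higher are followed by the 2 that were lower.
Aldh1a2, chr9:71215539-71215788, plus strand: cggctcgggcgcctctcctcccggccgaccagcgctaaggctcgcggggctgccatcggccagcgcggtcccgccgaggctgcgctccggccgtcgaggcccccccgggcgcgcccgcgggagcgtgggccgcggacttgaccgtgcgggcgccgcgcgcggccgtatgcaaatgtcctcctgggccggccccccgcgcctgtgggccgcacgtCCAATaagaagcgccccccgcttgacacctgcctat
Tgfb1, chr7:25686752-25687001, plus strand: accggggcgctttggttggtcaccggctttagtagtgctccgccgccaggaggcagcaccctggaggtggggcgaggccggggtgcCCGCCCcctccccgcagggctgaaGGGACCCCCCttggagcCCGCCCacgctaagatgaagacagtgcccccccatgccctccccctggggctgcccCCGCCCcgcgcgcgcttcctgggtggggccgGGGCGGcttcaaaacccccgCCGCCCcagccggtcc
Tgfbr1, chr4:47352972-47353221, plus strand: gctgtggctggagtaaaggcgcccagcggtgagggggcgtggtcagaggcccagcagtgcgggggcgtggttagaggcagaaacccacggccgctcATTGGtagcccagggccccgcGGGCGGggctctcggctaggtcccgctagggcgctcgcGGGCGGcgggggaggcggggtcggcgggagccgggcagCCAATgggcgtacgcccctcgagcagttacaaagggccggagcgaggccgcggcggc
Tgfbr2, chr9:116175364-116175613, minus strand: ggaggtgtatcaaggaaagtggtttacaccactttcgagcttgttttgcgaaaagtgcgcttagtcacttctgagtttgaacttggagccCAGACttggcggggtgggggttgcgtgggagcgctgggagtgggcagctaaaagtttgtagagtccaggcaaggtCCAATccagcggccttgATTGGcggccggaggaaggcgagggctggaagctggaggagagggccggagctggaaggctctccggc
The Aldh1a2 window held a single match, a CCAAT box 36 bases before the start, a motif that 33.8% of all 32851 promoter windows of this length hold. The Tgfb1 window held 5 GC boxes (a motif found in 32.7% of windows) and 1 kappaB match (7.25% of windows), 140 bases before the start. In the Tgfbr1 window there were 2 CCAAT boxes, 1 on each strand, and 2 GC boxes. Both CCAAT strands were matched in the Tgfbr2 window as well, together with 1 Smad box 160 bases before the start, a motif held by 42.2% of windows. None of the 4 windows matched TATAAA (12.4% of windows) or the AP-1 site (6.75% of windows). GC content was 77.6% for Aldh1a2, 75.2% for Tgfb1, 74.8% for Tgfbr1 and 58.4% for Tgfbr2, against a median of 52.4% over all windows. A match here is a string of letters and no evidence of binding.

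Tgfb1, the ligand (ENSMUSG00000002603, protein coding, plus strand of chromosome 7, 25687002 to 25705077, GENCODE M21 on GRCm38), was at 116, 117 and 114 FPKM in vehicle libraries 1 to 3 and at 136, 174 and 173 FPKM in nanoparticle libraries 1 to 3. All nanoparticle libraries lay above all vehicle libraries, and library 1 lay closest to them. The mean went from 116 ± 1.54 to 161 ± 21.9 FPKM (SD over n = 3 per group), a log2 change of 0.46 (standard error 0.138, adjusted p = 0.0437 by limma). This call is at the edge of the threshold. Without nanoparticle library 1 the log2 change was 0.58 (adjusted p = 8.0e-05 by limma), whereas the adjusted p was 0.105 to 0.158 when any one of the other 5 libraries was left out. The direction also rests on the scaling: it was 0.12 with libraries scaled by total reads, -0.0041 with FPKM scaled to the same sum and -0.054 after quantile normalization, none past the threshold. Those scalings moved the median log2 change over the whole set of tested genes to -0.28, -0.38 and -0.06 from -0.0010, so relative to other genes Tgfb1 was higher under the first and the second of them and level with the median under the third. Platelets are rich in TGF-beta1, and the summed level of 4 megakaryocyte and platelet markers was 219 to 246 FPKM in vehicle libraries and 145, 609 and 696 FPKM in nanoparticle libraries 1 to 3, nearly all of it Pf4 and Ppbp. Itga2b of that list was at most 0.481 FPKM in all libraries. The part of such cells in the Tgfb1 result was not tested.

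Among the other ligands of the family, Inhba, which encodes the activin A subunit, rose as well. It was at 32.9, 38.5 and 39.4 FPKM in the vehicle libraries and at 720, 464 and 404 FPKM in the nanoparticle libraries. The groups were far apart, and the log2 change was 3.76 (standard error 0.232, adjusted p = 1.5e-04 by limma). The remaining ligands, Tgfb2, Tgfb3 and Inhbb, were below the filter. Both ligands that were tested passed, Inhba and Tgfb1, where 33.2% of all tested genes did. By limma-voom on recovered reads, Tgfb3 was called too, in the opposite direction (log2 change -3.38, adjusted p = 0.0047), and it entered that fit through the vehicle libraries alone.

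Itgb8 (ENSMUSG00000025321, protein coding, minus strand of chromosome 12, 119158022 to 119238802), the beta subunit of an integrin that activates latent TGF-beta, was near silent in vehicle cells. It had 1, 5 and 1 reads in vehicle libraries 1 to 3 and 659, 184 and 178 reads in nanoparticle libraries 1 to 3, which are 0.0045, 0.0228 and 0.0043 FPKM against 3.65, 1.01 and 0.835 FPKM. Every nanoparticle library was above every vehicle library, with library 1 the highest. The ratio of summed reads on the deposited scale was 170-fold, with an exact 95% interval for counting error of 82.0 to 423. Leaving out nanoparticle library 1, the ratio was 87.5 (42.1 to 219). An exact permutation test of the FPKM gave p = 0.1 (two-sided), the smallest that 3 libraries against 3 allow. Because 1 nanoparticle library lay under 1 FPKM, Itgb8 missed the filter, and tests with other filters differed in their call. In the fit with no filter its log2 change was 1.35 (standard error 0.365, adjusted p = 0.0672 by limma), where 14.4% of genes were called (6.99% higher and 7.46% lower). With limma-voom on recovered reads, a choice made after the data were seen, it was 7.11 (SE 1.97, adjusted p = 0.0327), where 31.0% of genes were called. That fit needed 10 reads in 3 libraries, which Itgb8 reached only in the nanoparticle libraries, so a gene that entered in this way had to differ and the p supports little.

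The other genes of TGF-beta latency and activation went both ways. Of 15 listed genes, 10 were tested, with 2 higher (Mmp14 and Itgb1), 1 lower (Itgb5) and a median log2 change of 0.25, against -0.0010 for all tested genes. The called share was 30%, below the 33.2% of all tested genes. Mmp14, a membrane-bound matrix metalloproteinase, was at 36.2 to 36.6 FPKM in vehicle and 116 to 142 FPKM in nanoparticle libraries (log2 change 1.83, standard error 0.121, adjusted p = 1.9e-04 by limma). Itgb5, another beta subunit that pairs with alpha-v, went from 32.7 ± 0.563 to 12.3 ± 1.25 FPKM (SD over n = 3 per group; log2 change -1.35, standard error 0.107, adjusted p = 3.5e-04 by limma). Itgb1, the common beta-1 subunit, was at 100.4 to 106 FPKM in vehicle and 147 to 208 FPKM with nanoparticles (log2 change 0.73, standard error 0.153, adjusted p = 0.0127 by limma), but its change was 0.39 (adjusted p = 0.0969 by limma) with scaling by total reads, and its call was also lost when any single vehicle library was left out. Itgav, the partner of Itgb8, which is named here after its values were seen, had a log2 change of 0.76 (standard error 0.278, adjusted p = 0.0823 by limma), with 15.9 FPKM in nanoparticle library 1 against 8.14 and 7.06 FPKM in libraries 2 and 3 and 5.12 to 5.81 FPKM in vehicle. Without nanoparticle library 1, 8 genes of this list passed, 3 higher and 5 lower, where 64.8% of all tested genes did.

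Both TGF-beta receptor genes were lower with nanoparticles. Tgfbr2 (ENSMUSG00000032440, protein coding, minus strand of chromosome 9, 116084293 to 116175360), the receptor that binds the ligand, was at 10.5, 9.72 and 10.7 FPKM in vehicle libraries and at 3.91, 3.17 and 2.84 FPKM in nanoparticle libraries. Every nanoparticle library was below every vehicle library, and library 1 was the highest of its group. The vehicle mean of 10.3 ± 0.529 FPKM was 3.11 times the nanoparticle mean of 3.31 ± 0.549 FPKM (SD over n = 3 per group), a log2 change of -1.40 (standard error 0.121, adjusted p = 4.7e-04 by limma). It was past the threshold in all 17 alternative settings, with log2 changes from -1.79 to -1.32.

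Tgfbr1 (ENSMUSG00000007613, protein coding, plus strand of chromosome 4, 47353222 to 47414931), the signalling receptor kinase, was at 29.5, 28.2 and 30.9 FPKM in vehicle libraries and at 21.3, 18.7 and 18.8 FPKM in nanoparticle libraries. Here too all nanoparticle libraries lay below all vehicle libraries. The mean went from 29.5 ± 1.37 to 19.6 ± 1.45 FPKM (SD over n = 3 per group), a log2 change of -0.57 (standard error 0.102, adjusted p = 0.0068 by limma), and the call held in all 17 alternative settings (log2 change -1.02 to -0.54). The log2 changes of the receptor pair were -1.40 and -0.57, and the difference between them was not tested.

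Of 9 listed receptors of TGF-beta and activin, 7 were tested, with 3 lower, 1 higher and a median log2 change of -0.0030. Calls made up 57.1% of them, against 33.2% of all tested genes. Acvrl1, a type of receptor kinase best known from endothelium, was lower, at 24.6, 20.7 and 20.01 FPKM in vehicle and 14.1, 14.7 and 16.9 FPKM in nanoparticle libraries (log2 change -0.49, standard error 0.125, adjusted p = 0.0261 by limma). Eng, which encodes the co-receptor endoglin, was higher. The Eng call was lost with scaling by total reads, by quantiles and to the same FPKM sum, and those of both genes when any single vehicle library was left out (limma adjusted p of 0.0661 to 0.106 for Acvrl1). The tested receptors Acvr1, Acvr1b and Acvr2a, for activins and bone morphogenetic proteins, did not pass.

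**Figure D2:**
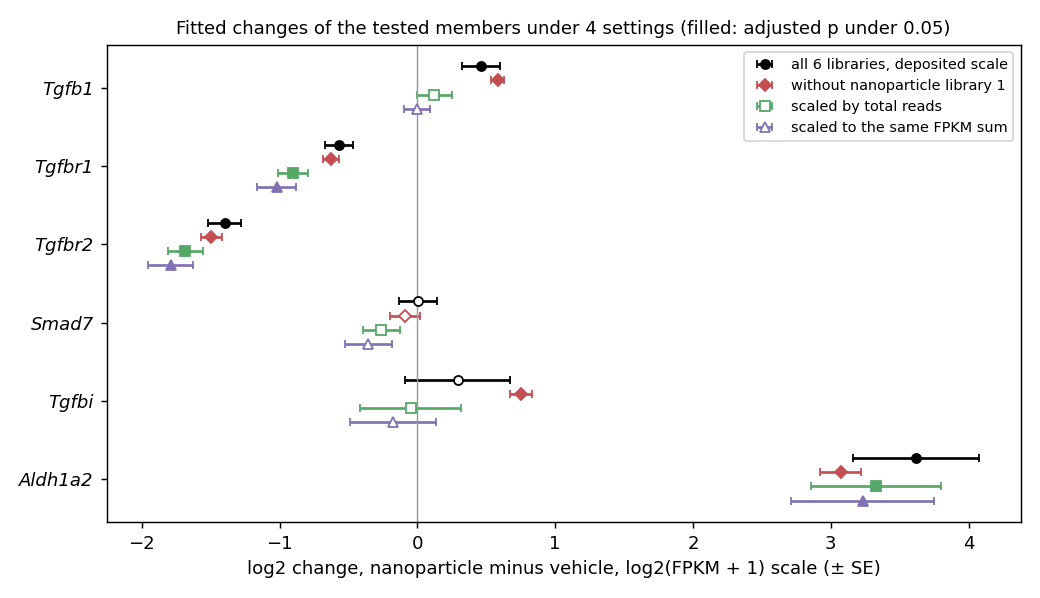
Fitted log2 change (nanoparticle minus vehicle, log2(FPKM + 1) scale, bars ± SE) of the 6 tested members under 4 settings, with filled symbols for a limma adjusted p under 0.05. Aldh1a2, Tgfbr1 and Tgfbr2 keep their side of 0 and their call in all 4, Tgfb1 is past the threshold in 2, and Tgfbi only without nanoparticle library 1.

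Smad7 (ENSMUSG00000025880, protein coding, plus strand of chromosome 18, 75367529 to 75395935), the inhibitory Smad, was at 3.62, 3.05 and 3.54 FPKM in vehicle libraries and at 4.05, 2.78 and 3.49 FPKM in nanoparticle libraries. The groups overlapped fully, with nanoparticle libraries holding both the highest and the lowest value. The log2 change was 0.0050 (standard error 0.136, adjusted p = 0.981 by limma), with 208 to 334 reads per library. Smad3 (ENSMUSG00000032402, protein coding, minus strand of chromosome 9, 63646767 to 63757994), which carries the signal to the nucleus, was scarce. It had 21, 31 and 39 reads in vehicle libraries and 39, 2 and 2 reads in nanoparticle libraries, or 0.190, 0.282 and 0.337 FPKM against 0.431, 0.0218 and 0.0187 FPKM. Nanoparticle library 1 was the highest of all 6, while libraries 2 and 3 were under the floor of 3 reads. The groups therefore overlapped (exact permutation test, two-sided, p = 0.4), and limma-voom on recovered reads gave a log2 change of -2.09 (SE 0.953, adjusted p = 0.141). Over all libraries, with 43 nanoparticle and 91 vehicle reads, the ratio on the deposited scale was 0.549 (exact 95% interval for counting error 0.373 to 0.798). Between nanoparticle libraries 2 and 3 together, with 4 reads, and the vehicle libraries, with 91, the ratio was 0.0744 (exact 95% interval for counting error 0.0198 to 0.197).

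No Smad gene passed among the 5 of 8 listed Smads that were tested (lowest limma adjusted p 0.0632, for Smad5), where 33.2% of all tested genes did. An unadjusted limma p under 0.05 was reached by 2, Smad2 and Smad5, and limma-voom on recovered reads called 1, Smad5. The median log2 change was 0.10. Smad2, the other transducer of TGF-beta signals, which is named here after its values were seen, was at 11.4 to 11.9 FPKM in vehicle and 17.4, 14.7 and 12.8 FPKM in nanoparticle libraries 1 to 3 (log2 change 0.32, standard error 0.128, adjusted p = 0.105 by limma). Every library held more Smad2 than Smad3 in FPKM. Without nanoparticle library 1, 1 Smad was higher and 1 lower, of 5 tested, where 64.8% of all tested genes were called.

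Regulators of the signal went both ways. Of 22 listed genes, 18 were tested, with 3 higher (Pmepa1, Skil and Tgif1), 2 lower (Ski and Wwp1) and a median log2 change of 0.10. The called share was 27.8%, below the 33.2% of all tested genes. Pmepa1, which holds Smads away from the receptor, was at 2.33, 2.24 and 1.66 FPKM in vehicle and 8.30, 6.74 and 7.65 FPKM in nanoparticle libraries (log2 change 1.48, standard error 0.131, adjusted p = 5.1e-04 by limma). The corepressor gene Skil (SnoN) was at 4.46 to 5.45 FPKM in vehicle and 13.6 to 18.9 FPKM with nanoparticles (log2 change 1.47, standard error 0.149, adjusted p = 8.3e-04 by limma). Its relative Ski, also a corepressor gene, was lower. Tgif1, a homeobox corepressor of Smads, went from 9.63 ± 0.217 to 24.6 ± 3.66 FPKM (SD over n = 3 per group; log2 change 1.26, standard error 0.125, adjusted p = 7.6e-04 by limma). The calls of these 4 genes held in all 17 alternative settings, while that of Wwp1, a ubiquitin ligase gene, was lost in 7. Without nanoparticle library 1, 12 of the 18 passed, 6 in each direction, where 64.8% of all tested genes did.

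Tgfbi (ENSMUSG00000035493, protein coding, plus strand of chromosome 13, 56609523 to 56639562), which encodes a secreted matrix protein named for its induction by TGF-beta, split the nanoparticle libraries. It was at 113, 119 and 121 FPKM in vehicle libraries and at 75.9, 184 and 215 FPKM in nanoparticle libraries. Library 1 lay below and libraries 2 and 3 lay above every vehicle library, a pattern that 19.1% of tested genes shared in one or the other orientation. The mean went from 118 ± 3.86 to 158 ± 72.9 FPKM (SD over n = 3 per group), a log2 change of 0.29 (standard error 0.382, adjusted p = 0.601 by limma). Without nanoparticle library 1 it was 0.75 (standard error 0.0767, adjusted p = 2.5e-04 by limma). With all libraries the sign turned under scaling by total reads (-0.050), to the same FPKM sum (-0.18) and by quantiles (-0.24).

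The other target genes of TGF-beta signalling also moved in both directions. Of 18 listed genes, 14 were tested, with 5 higher (Skil, Pmepa1, Id2, Cdkn1a and Cdkn2b), 4 lower (Klf10, Id1, Fn1 and Itgae) and a median log2 change of -0.04. Calls made up 64.3% of the list, against 33.2% of all tested genes (17.0% higher and 16.2% lower). Cdkn2b, a cell cycle inhibitor gene, was at 4.59, 4.50 and 4.72 FPKM in vehicle and 12.1, 12.6 and 13.7 FPKM in nanoparticle libraries, 2.77-fold higher in the mean (adjusted p = 2.4e-04 by limma). Itgae, which encodes the integrin subunit CD103 of gut dendritic cells, was at 2.02, 2.85 and 2.77 FPKM in vehicle and 0.214, 0.277 and 0.487 FPKM in nanoparticle libraries. The vehicle mean was 7.81 times the nanoparticle mean, and Itgae passed the filter through the vehicle libraries alone, so its call supports little. Passing in this way fixed that all nanoparticle libraries lay below all vehicle libraries for Itgae. Its direction, opposite to Aldh1a2 and Itgb8, is a description only. Of the other called genes, Fn1 encodes fibronectin, and Id1 and Id2 encode inhibitors of basic helix-loop-helix factors. The calls of Id2 and Cdkn1a were lost with scaling by total reads and by quantiles, and when any single vehicle library was left out. That of Klf10 was lost without vehicle library 1 or 2.

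Langerhans cells, the dendritic cells of the epidermis, depend on TGF-beta, and a list of 7 of their genes was examined. All 7 were tested, with 3 lower (Cdh1, Epcam and Cd207), 2 higher (Ahr and Id2) and a median log2 change of -0.31. The called share was 71.4%, against 33.2% of all tested genes. Epcam, an epithelial adhesion gene, went from 3.62 ± 1.26 to 0.379 ± 0.321 FPKM (SD over n = 3 per group), and it too passed the filter through the vehicle libraries alone. Cd207, which encodes langerin, also needed the vehicle libraries to pass the filter, and it lost its call in 9 of 17 alternative settings. Cdh1, the adhesion molecule E-cadherin, was at 33.2 to 36.0 FPKM in vehicle and 0.857 to 5.43 FPKM with nanoparticles (log2 change -3.10, standard error 0.474, adjusted p = 0.0038 by limma). Ahr, the aryl hydrocarbon receptor gene, had a log2 change of 0.69 (adjusted p = 0.0065 by limma), which was 0.37 (adjusted p = 0.0635 by limma) with scaling by total reads.

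**Figure D3:**
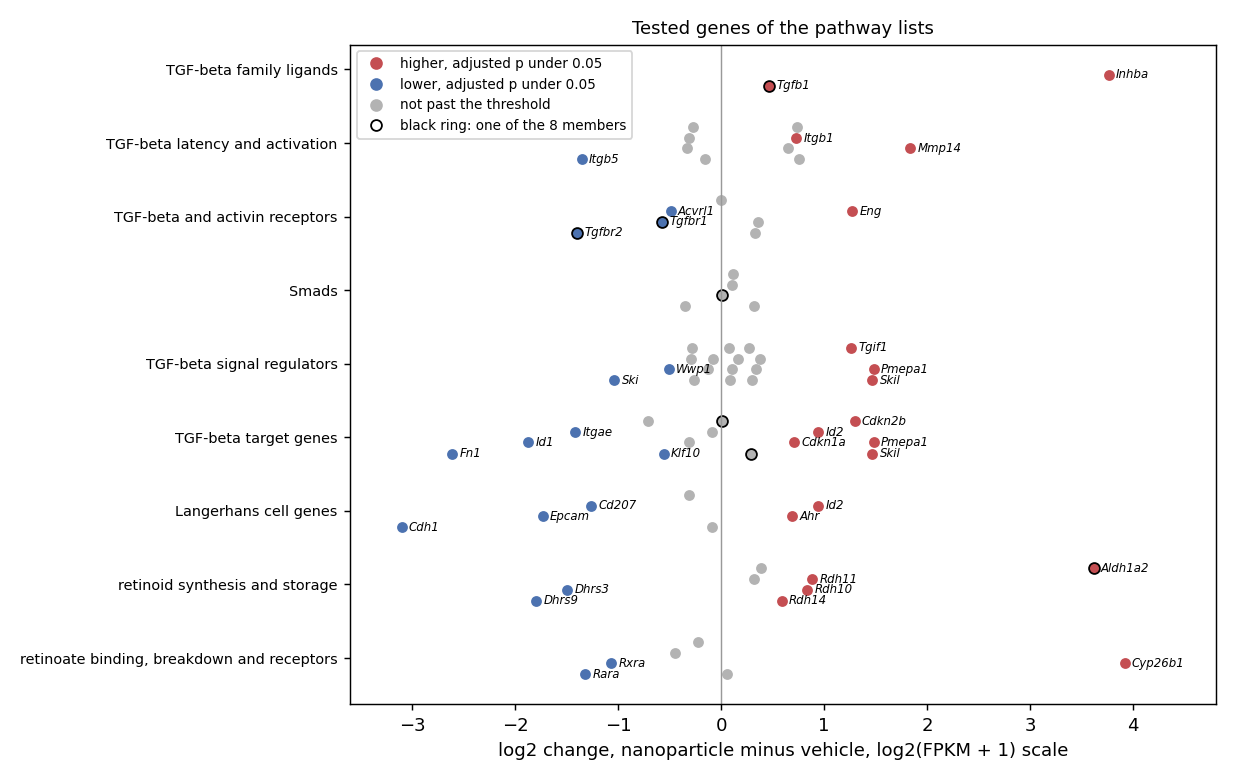
Log2 change (nanoparticle minus vehicle, log2(FPKM + 1) scale) of each tested gene in the 9 pathway lists, 1 point per gene, coloured by its call at an adjusted p of 0.05 and ringed in black for the members. Called genes lie on both sides of 0 in most lists, none of the 5 tested Smads is called, and Inhba, Aldh1a2 and Cyp26b1 lie farthest to the right.

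Aldh1a2 (ENSMUSG00000013584, protein coding, plus strand of chromosome 9, 71215789 to 71296243), which makes retinoic acid, rose from 1.62, 2.56 and 2.52 FPKM in vehicle libraries to 82.7, 27.5 and 24.4 FPKM in nanoparticle libraries. In reads, these were 73, 115 and 119 against 3058, 1031 and 1063. The lowest nanoparticle library was far above the highest vehicle library, and library 1 was 3.19 times the mean of libraries 2 and 3. The mean went from 2.23 ± 0.532 to 44.9 ± 32.8 FPKM (SD over n = 3 per group), 20.1-fold, with a log2 change of 3.62 (standard error 0.458, adjusted p = 0.0019 by limma). Without nanoparticle library 1, the mean of libraries 2 and 3 was 11.6 times the vehicle mean, and the log2 change was 3.07 (standard error 0.149, adjusted p = 1.1e-05 by limma). It was called in all 17 alternative settings, with log2 changes from 3.07 to 4.12. The other retinal dehydrogenase genes had almost no reads: Aldh1a1 at most 2 and Aldh1a3 at most 4 in any library. The summed level of 7 stromal and fibroblast markers was 0.0401 to 0.125 FPKM in vehicle. It was 3.83, 1.44 and 0.923 FPKM in nanoparticle libraries 1 to 3, the same order as for Aldh1a2 and Itgb8 in having library 1 highest. Nearly all of these nanoparticle sums came from Dcn (2.39, 0.311 and 0.0889 FPKM) and Pdgfrb (1.29, 1.03 and 0.834 FPKM). Pdgfra was at most 0.0554 FPKM in any library, with a lower mean in nanoparticle libraries, and Col1a1 and Col1a2 were at or under 3 reads in all 6. The part of such cells in the Aldh1a2 and Itgb8 results was not tested.

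Of 16 listed genes of retinoid synthesis and storage, 8 were tested, with 4 higher, 2 lower and a median log2 change of 0.49. Calls made up 75% of those tested, against 33.2% of all tested genes. Besides Aldh1a2, the higher genes were Rdh10, Rdh11 and Rdh14, which encode retinol or retinal dehydrogenases and reductases of the step before it. Rdh10, at 0.622 to 1.00 FPKM in vehicle, passed the filter through the nanoparticle libraries, so its call supports little. The calls of Rdh11 and Rdh14 were lost with FPKM scaled to the same sum, and that of Rdh14 also with scaling by total reads and without vehicle library 2 or 3. Dhrs3, which reduces retinal back to retinol, went from 21.5 ± 2.83 to 7.05 ± 1.34 FPKM (SD over n = 3 per group; log2 change -1.49, standard error 0.164, adjusted p = 0.0011 by limma). Dhrs9, a dehydrogenase that can use retinol, went from 36.2 ± 3.22 to 9.80 ± 1.63 FPKM (SD over n = 3 per group; log2 change -1.79, standard error 0.147, adjusted p = 3.9e-04 by limma). For both genes all nanoparticle libraries were below all vehicle libraries.

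Downstream of retinoic acid, 6 of 12 listed binding, breakdown and receptor genes were tested, with 1 higher, 2 lower and a median log2 change of -0.34. The called share was 50%, against 33.2% of all tested genes. The higher gene was Cyp26b1, whose product breaks retinoic acid down. It was at 0.403, 0.339 and 0.349 FPKM (43, 36 and 39 reads) in vehicle and 41.5, 14.6 and 12.3 FPKM (3626, 1289 and 1264 reads) in nanoparticle libraries. As for Aldh1a2, nanoparticle library 1 was the highest and libraries 2 and 3 were close to each other. The nanoparticle mean was 62.6 times the vehicle mean, and the mean of libraries 2 and 3 was 36.8 times it. Because Cyp26b1 lay under 1 FPKM in vehicle, it passed the filter through the nanoparticle libraries alone, and its place as the higher call of the list follows in part from that. The retinoic acid receptor gene Rara was at 14.1, 15.8 and 16.8 FPKM in vehicle and 3.61, 6.52 and 7.41 FPKM in nanoparticle libraries (log2 change -1.32, standard error 0.234, adjusted p = 0.0067 by limma). Its dimer partner Rxra went from 17.9 ± 0.288 to 8.02 ± 0.655 FPKM (SD over n = 3 per group; log2 change -1.07, standard error 0.0960, adjusted p = 5.4e-04 by limma). The tested genes Rarg, Rxrb and Fabp5, a carrier of retinoic acid, did not pass.

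**Figure D4:**
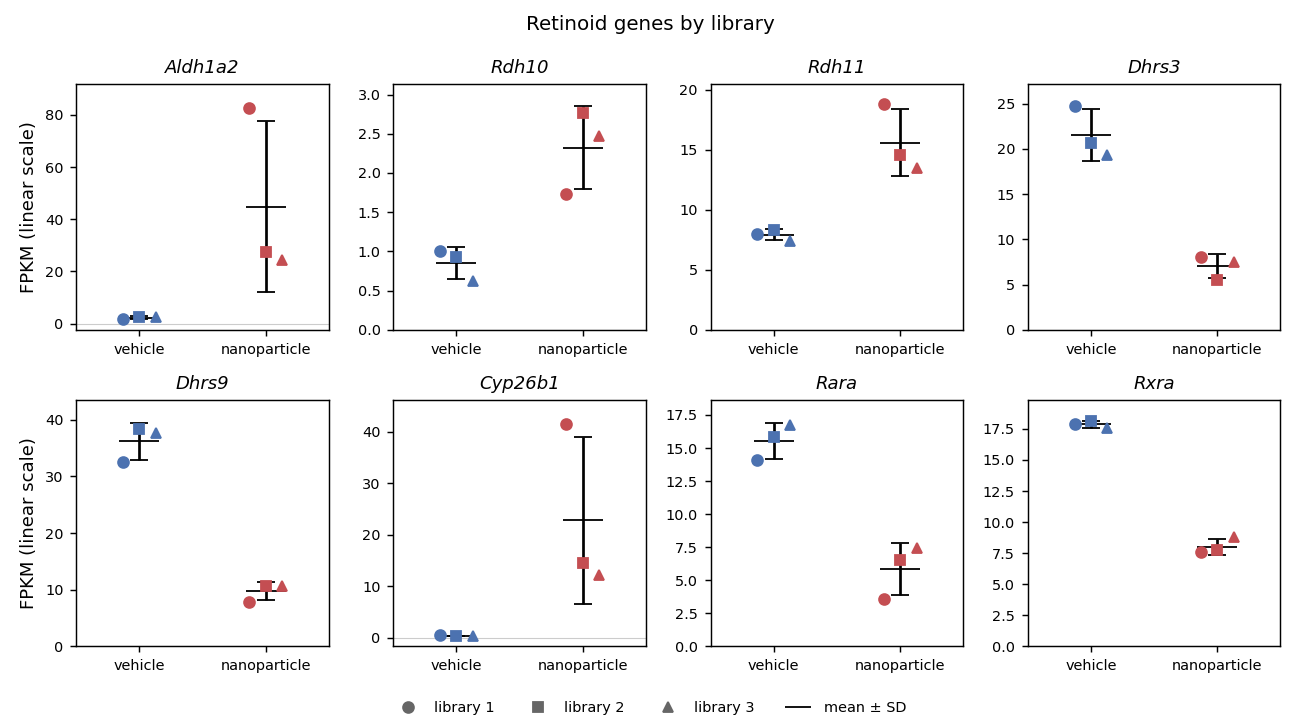
FPKM (linear scale, 1 panel per gene) of 8 retinoid genes in the 3 vehicle and 3 nanoparticle libraries, with symbols for library numbers and bars for mean ± SD. Aldh1a2 and Cyp26b1 are highest in nanoparticle library 1, and Dhrs3, Dhrs9, Rara and Rxra are lower in all nanoparticle libraries than in all vehicle libraries.

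Over all 9 pathway lists, which hold 106 genes with the members, 71 were tested and 34 called (47.9%, against 33.2% of all tested genes), 17 in each direction, with a median log2 change of 0.07. Leaving out nanoparticle library 1 gave 52 called genes, 25 higher and 27 lower, where 64.8% of all tested genes were called. With all libraries but without the members, 30 of 65 tested list genes were called (46.2%). The lists were chosen with earlier results of these data known, and some of their genes passed the filter through 1 group only. These shares are therefore a description. The genes closest in pattern to each member were found by the root mean square difference of log2(FPKM + 1) over the 6 libraries, after centring each gene on its mean. For Aldh1a2 they were Slc7a2 (0.159) and Stx11 (0.163), for Tgfbr2 Adcy7 (0.0443) and Ramp1 (0.0456), and for Tgfbr1 Zfp146 (0.0165) and Hrh1 (0.0270). Tgfb1 was closest to Tpd52l2 (0.0290) and Brms1 (0.0318), Smad7 to Spaca9 (0.0337) and Rbm6 (0.0457), and Tgfbi to Fau (0.0186), a ribosomal protein gene, and Cox4i1 (0.0352), a cytochrome c oxidase gene. Being picked for this closeness, Fau and Cox4i1 shared the split of the nanoparticle libraries seen for Tgfbi. They were at 256 and 126 FPKM in library 1, against 611 and 318 FPKM in library 2 and 698 and 368 FPKM in library 3.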

How the data were processed

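The submitters' processing notes name CASAVA, STAR 2.5, HTSeq, edgeR 3.16.5 and DESeq2, and the builds mm10 and hg19, with no roles. The authors deposited 2 tables of 23398 genes whose 140388 values are identical, and one of them is named for read counts. The deposited values are not whole and were treated as FPKM, a unit inferred from the values. With GENCODE M21 exon lengths, whole reads (within 0.01) were recovered from 95.8% to 96.1% of nonzero values per library, including all values of the 8 members. The authors' library scales differed by at most 0.13% from median-of-ratios size factors computed here, so any change common to most genes is scaled away.

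The 10682 genes that reached 1 FPKM in 3 or more libraries were fitted with limma 3.58.1 in R 4.3.3 on log2(FPKM + 1), with group as the single term and a mean-variance trend. P-values were Benjamini-Hochberg adjusted over all tested genes, with a threshold of 0.05. This scale understates changes of low genes. The fit was tested on simulated data with the same spread for all genes and no divergent library. That test does not cover a library that stands apart, as nanoparticle library 1 does. Values at or under 3 reads were taken as the floor, and intervals cover counting error only, because PCR copies cannot be told from separate molecules. Exact permutation tests used scipy 1.17.1.

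Groups were taken from the sample titles. The members, the 9 pathway lists and the 8 marker lists were chosen with earlier results of these data known. Named were all members, called list genes (values for up to 3 per list by adjusted p, the others by symbol), and the 2 genes closest in pattern to each tested member. Other scalings, filters, pseudocounts, variance models, a replicate block and omission of each library were tried. No exon base of a member is shared with another annotated gene in GENCODE M21. No replicate pair agreed within sampling noise (chi-square per degree of freedom 2.90 or more). The result of 1 listed gene is not reported here.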

Additional observations from a re-analysis of the deposited data

How the results depend on the processing

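Counts and calls rested on the spread within the nanoparticle group, on the scaling and on 1 library. Over all tested genes, 3550 were called, 1817 higher and 1733 lower. Scaling by total reads gave 1108 higher and 3613 lower genes, and scaling to the same FPKM sum 881 and 4306, with the all-gene median at -0.28 and -0.38 by construction. Those scalings put 23.5% and 17.0% of calls on the higher side, in place of 51.2%. Library weights, from limma's gene-by-gene method because its REML method did not converge, set nanoparticle library 1 at 0.0438 and gave 7237 genes, 3773 higher and 3464 lower, and 53 of the pathway list genes in place of 34. Leaving out 1 library gave 2141 to 6923 genes (1114 to 3660 higher and 1027 to 3263 lower), 24 to 52 pathway list genes and 3 to 5 members, the most without nanoparticle library 1 in each case.

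Tgfbr2, Tgfbr1 and Aldh1a2 kept their direction and call in all 17 alternatives. Tgfb1 lost its call with no filter (log2 change 0.46, limma adjusted p = 0.0695), scaled by total reads (0.12) and with a replicate block (0.46, limma adjusted p = 0.110), and reversed scaled to the same FPKM sum (-0.0041) and by quantiles (-0.054). Omitting single libraries gave it 0.40 to 0.58. Tgfbi reversed under the same FPKM sum (-0.18), total reads (-0.050) and quantiles (-0.24), and passed with library weights (0.65); omitting single libraries gave 0.0068 to 0.75. Smad7, with no call in any setting, changed sign with the same FPKM sum (-0.36), total reads (-0.26) and library weights (-0.15), and without vehicle library 2 (-0.05) and nanoparticle libraries 1 (-0.093) and 3 (-0.0080), within -0.093 to 0.12 over omissions. The untested log2 difference was 1.35 for Itgb8, 3.83 at a pseudocount of 0.1 and 7.11 by limma-voom, and 0.92 to 1.60 over omissions. For Smad3 it was -0.15, -0.89 and -2.09, and -0.31 to -0.07. Beyond the scalings, library weights and omissions, the cause of these shifts was not tested.

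Whether library numbers pair the samples could not be settled. Same-numbered deviations correlated at 0.0654, 0.113 and -0.0577 for numbers 1 to 3, and other pairs at -0.129 to 0.108. Libraries 1 and 2 of each group correlated best with their own number, and libraries 3 did not. Deviations were centred within groups of 3 libraries, and nanoparticle library 1 stands apart, so these values cannot exclude pairing. With the replicate block 2785 genes were called. Of 30 called list genes other than the members, 27 kept their call with the block, 24 under each of the scalings by total reads and FPKM sum, and 30 without nanoparticle library 1. A depth of 17282809 to 21977493 reads leaves Smad3 and vehicle Itgb8 resting on 39 reads or fewer per library.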

Other observations

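Several listed genes too low for the test differed between groups in their reads. They were chosen after their values were seen, and were not tested in the filtered fit. Tgfb3, another TGF-beta ligand gene, had 26, 36 and 24 reads in vehicle libraries 1 to 3 and 1, 2 and 3 reads in nanoparticle libraries 1 to 3 (no filter, limma adjusted p = 0.0069). Rarb, a retinoic acid receptor gene, had 8, 12 and 13 reads in vehicle and 1, 2 and 0 reads in nanoparticle libraries (no filter, limma adjusted p = 0.0277). The fit with no filter called 14.4% of all genes. Tgfb3 and Rarb were picked for their difference and were at or under the floor of 3 reads in all nanoparticle libraries. Their p-values therefore support little. Tgfb2 had 0, 4 and 1 reads in vehicle and 50, 3 and 9 reads with nanoparticles, so that only nanoparticle library 1 stood out (no filter, limma adjusted p = 0.421). In FPKM, nanoparticle library 1 was the highest of the 6 libraries for each of Tgfb2, Itgb8, Smad3, Aldh1a2 and Cyp26b1.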
